A study of Mus musculus with 18 samples.

Results

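The Fbxw genes of the mouse oocyte form a cluster of near copies on chromosome 9, and 10 of them were followed here through 6 groups of ovary libraries: Fbxw13, Fbxw14, Fbxw15, Fbxw16, Fbxw19, Fbxw20, Fbxw21, Fbxw22, Fbxw24 and Fbxw28. All 10 were matched by gene symbol among the 30172 genes measured in each library. They were chosen by symbol, from a list drawn up with the diet and age results of these same libraries known. Which of those values the choice rested on is not recorded, so the levels and fold changes of the members are all treated as used by it and are given as a description, with no p. Where the text says how many members met a criterion, that count describes these values too and is no test of the members. The libraries were made from whole ovaries of wild-type C57BL/6J F1 females whose dams ate a diet with 3% methionine (F1-HHcy) or normal chow (F1-Control). The study's methods describe the control feed as a standard diet with methionine added at a lower percentage. According to the labels the diet began 4 weeks before mating, while the study's methods describe a longer feeding period, and it went on through gestation and lactation, and the pups themselves were not treated. Ovaries were taken on postnatal day 3, 7 or 21 (Pd3, Pd7 or Pd21), with 3 libraries per diet and day and 18 in all. Pd3 and Pd7 were in batch 1 and Pd21 in batch 2, so each comparison of the diets lies within 1 batch. The sources used here do not say whether the libraries of a group came from separate litters, so the SD and the p-values measure the spread between these libraries, which may be partly technical.

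F-box proteins are the parts of SCF ubiquitin ligases that pick the substrate. The F-box motif binds the adaptor Skp1, which links it to the scaffold Cul1 and the RING protein Rbx1, and in the Fbxw class WD40 repeats form the surface that recognises the substrate. In the ovary the oocyte of a primordial follicle rests until the follicle is activated, and a growing oocyte then stores large amounts of RNA, including that of many genes hardly used elsewhere. Each of the 10 members encodes such an F-box and WD40 protein.

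The members lie head to tail on the minus strand between chr9:109139454-109626059 of GRCm38.p6 in the RefSeq annotation, a patch release of the build named in the submitters' processing notes, over a stretch of 486.6 kilobases. Each member spans 15661 to 25895 bases, introns included. In order they are Fbxw21, Fbxw13, Fbxw20, Fbxw14, Fbxw28, Fbxw22, Fbxw16, Fbxw19, Fbxw15 and Fbxw24, with Fbxw23, which is no member, between Fbxw19 and Fbxw15. Fbxw25, Fbxw18, Fbxw26 and Fbxw27 follow after Fbxw24 on the same strand and are not members either. Of the 10 members, 8 had a promoter in the RefSeq table of GRCm38.p6, and Fbxw13 and Fbxw22 had none there. The 200 bases before the start site are printed for 4 members, the pair with the highest levels (Fbxw15 and Fbxw24) and the pair with the largest fold changes between the diets at Pd3 (Fbxw20 and Fbxw28). Capitals mark the 6 bases CAGCTG, which read the same on both strands and belong to the E-box motifs bound by basic helix-loop-helix factors as a class.
Fbxw15 (chr9:109568263-109568462, minus strand): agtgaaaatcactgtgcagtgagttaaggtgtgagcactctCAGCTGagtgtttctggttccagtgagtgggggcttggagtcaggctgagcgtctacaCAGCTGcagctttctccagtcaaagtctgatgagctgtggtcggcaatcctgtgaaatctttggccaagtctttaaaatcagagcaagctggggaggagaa
Fbxw24 (chr9:109626060-109626259, minus strand): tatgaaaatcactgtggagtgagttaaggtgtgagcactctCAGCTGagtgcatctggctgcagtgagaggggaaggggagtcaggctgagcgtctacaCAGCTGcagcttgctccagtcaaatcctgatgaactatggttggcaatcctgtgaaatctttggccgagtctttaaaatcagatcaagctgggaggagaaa
Fbxw20 (chr9:109234755-109234954, minus strand): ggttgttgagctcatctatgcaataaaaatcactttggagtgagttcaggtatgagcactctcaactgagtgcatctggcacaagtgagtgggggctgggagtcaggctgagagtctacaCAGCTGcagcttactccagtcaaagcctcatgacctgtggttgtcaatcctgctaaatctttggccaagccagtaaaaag
Fbxw28 (chr9:109339660-109339859, minus strand): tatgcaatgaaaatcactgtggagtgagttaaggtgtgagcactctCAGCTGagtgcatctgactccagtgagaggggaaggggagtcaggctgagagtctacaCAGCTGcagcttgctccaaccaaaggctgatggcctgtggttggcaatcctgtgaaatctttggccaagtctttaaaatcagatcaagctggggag

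In these 200 bases, CAGCTG occurred at least 2 times in 7 of the 8 member promoters and 1 time in that of Fbxw20. Of all 27025 promoters, 10.6% held it in the same window and 0.87% held it at least 2 times. The 8 member promoters are copies of each other, with 64.7% to 97.0% identical bases over their 28 pairs. They are thus not separate cases to set against these shares. It is no trait of the members alone, as Fbxw25, Fbxw18 and Fbxw26 of the same array also held 2 copies, while Fbxw23 held 0. In Fbxw15 and Fbxw24 the copies began 159 and 101 bases before the start site, in Fbxw28 they began 154 and 96 bases before it, and the copy of Fbxw20 began 80 bases before it. Over the whole 300 bases of a promoter, CAGCTG was in 8 of 8 member promoters and in 16.1% of all promoters. TATAAA (14.2% of all promoters), TAATTG (8.15%), TAATTA (5.31%) and CACGTG (7.24%), read on both strands, were in 0 of the 8, and TGATTG (14.4%) was in 1. The longest run of letters common to all 8 was aaatctttggcc, 12 bases long, which was in 10 of all 27025 promoters in this window. The other 2 of the 10 were the promoters of Fbxw18 and Fbxw26, whereas those of Fbxw23 and Fbxw25 did not hold it. A match of letters is a description and not a bound site.

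The members were also alike in their coding sequences, in which a pair had between 79.2% and 99.1% identical bases, with a median of 83.8% over the 45 pairs. Fbxw14 and Fbxw28 formed the pair at 99.1%, and their promoters were 97.0% identical. Fbxw22 was 92.3% identical to Fbxw14, while Fbxw15 and Fbxw24 were nearest to each other at 85.2%. This bears on how well the values of the members can be told apart. Of all 100-base windows of a member's transcript in GENCODE vM21, between 96.7% and 100% were found in no other gene for 8 members, whereas the share was 55.2% for Fbxw14 and 53.8% for Fbxw28. The shares depend on the window. With 50 bases they were 84.6% to 94.2% for the 8, 32.4% for Fbxw14 and 32.9% for Fbxw28. With 150 bases they were 100%, 69.8% and 67.8%. How fragments that fit several genes were counted is not given in the sources used here, so the separate values of Fbxw14 and Fbxw28 are uncertain.

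**Figure D1:**
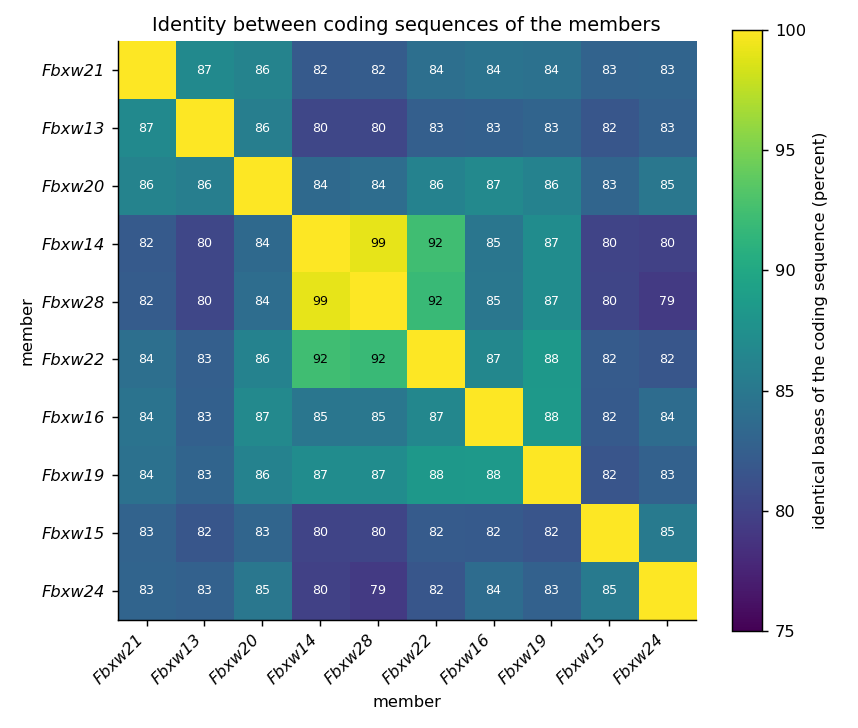
Percent of identical bases between the coding sequences of each pair of members (GENCODE vM21, GRCm38), with the members on both axes in their order along chromosome 9. Fbxw14 and Fbxw28 stand out at 99.1%, and the lowest pair is Fbxw24 with Fbxw28 at 79.2%.

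Levels are FPKM, fragments counted on a gene, scaled to its length in kilobases and to the total of the library, and 33630641 to 39399281 fragments were counted per library. At this depth the 8 members other than Fbxw15 and Fbxw24 rested on 28 to 272 fragments each in the F1-Control libraries of Pd3 and on at least 1139 fragments in those of Pd21. The F1-HHcy libraries of Pd3 stood unevenly, with replicate 3 far below replicates 1 and 2 for all 10 members, so values of this group are given by library. In bulk ovary RNA, fewer oocytes and less RNA per oocyte cannot be told apart.

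In F1-Control ovaries all 10 members were low at Pd3 except Fbxw15 and Fbxw24. Fbxw15 was at 18.3, 20.1 and 28.0 FPKM in the 3 libraries (22.1 ± 5.19, SD, n = 3). Fbxw24 was at 13.1, 15.6 and 23.1 FPKM (17.2 ± 5.21). They overlapped each other and lay above every other member, since the next, Fbxw21, was at 3.00, 2.34 and 3.23 FPKM. The 8 others ranged from 0.517 to 3.23 FPKM, and in order of their means they were Fbxw21, Fbxw16, Fbxw13, Fbxw22, Fbxw19, Fbxw28, Fbxw14 and Fbxw20, with each overlapping its neighbours. Fbxw15 and Fbxw24 together made up 76.2%, 77.8% and 77.5% of the summed FPKM of the 10 members in these libraries.

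At Pd7 every F1-Control library lay above every F1-Control library of Pd3 for 10 of 10 members, where the groups were apart in this direction for 15.6% of all genes tested. The summed level went from 41.1, 45.8 and 65.9 FPKM at Pd3 to 306.7, 400.8 and 393.4 FPKM at Pd7. Fbxw20 moved the farthest, from 0.564, 0.517 and 1.55 FPKM to 19.4, 23.3 and 35.9 FPKM, a log2 fold change of 3.85 ± 0.26 (SE). All log2 fold changes are on the scale of log2(FPKM + 1), which understates the change of genes near 1 FPKM. On this scale Fbxw22 moved the least, from 1.35, 1.60 and 1.10 FPKM to 5.85, 6.99 and 10.3 FPKM (1.87 ± 0.20). By the ratio of group means the smallest rise was that of Fbxw15, at 4.10-fold beside 5.73-fold for Fbxw22, and with a pseudocount of 0.1 it was likewise Fbxw15. The median over the members was 2.85, beside -0.07 over all 13336 genes tested, and 10 of 10 members were called higher. A gene was called where its log2 fold change exceeded 0.58 in size and its p, before adjustment, was under 0.05, which held in this direction for 7.00% of all genes tested. Since the members were listed with such results known, nothing is read from these counts. Of the 10, Fbxw14, Fbxw19, Fbxw20 and Fbxw28 passed the filter on low values, 1 FPKM or more in 3 or more of the libraries compared, only through the Pd7 libraries. At Pd7 the order was led by Fbxw24 (137 ± 20.2 FPKM) and Fbxw15 (90.7 ± 15.9), each apart from the next, and Fbxw22 was last and apart from Fbxw13 above it.

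From Pd7 to Pd21 the smallest log2 fold changes were those of Fbxw15 and Fbxw24, and the next, that of Fbxw20, was close to that of Fbxw24 given their SEs. Fbxw15 was at 80.7, 109 and 82.3 FPKM at Pd7 and at 115, 91.1 and 84.6 FPKM at Pd21, and Fbxw24 went from 116, 156 and 141 FPKM to 239, 147 and 173 FPKM. For both, the ranges overlapped and the log2 fold changes were 0.10 ± 0.18 and 0.42 ± 0.21. Fbxw19 was at 10.6, 12.5 and 17.4 FPKM at Pd7 and at 63.8, 46.2 and 32.5 FPKM at Pd21, a log2 fold change of 1.72 ± 0.26, the largest of the 10. The 8 members other than Fbxw15 and Fbxw24 were called higher (14.7% of all genes). Of these, 7 did not overlap (24.4% of all genes), the exception being Fbxw20 at 0.69 ± 0.23. Fbxw20 was not called without F1-Control replicate 1 of Pd21 (0.56) or without F1-Control replicate 1 (0.51) or 2 (0.63) of Pd7. Nor was it called with the adjusted p or in 1 model of all 18 libraries, so the line between Fbxw24 and Fbxw20 rests on the criterion. Age and batch cannot be told apart in this comparison, and it shares the F1-Control libraries of Pd7 with the comparison of Pd7 with Pd3 and with that of the diets at Pd7.

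**Figure D2:**
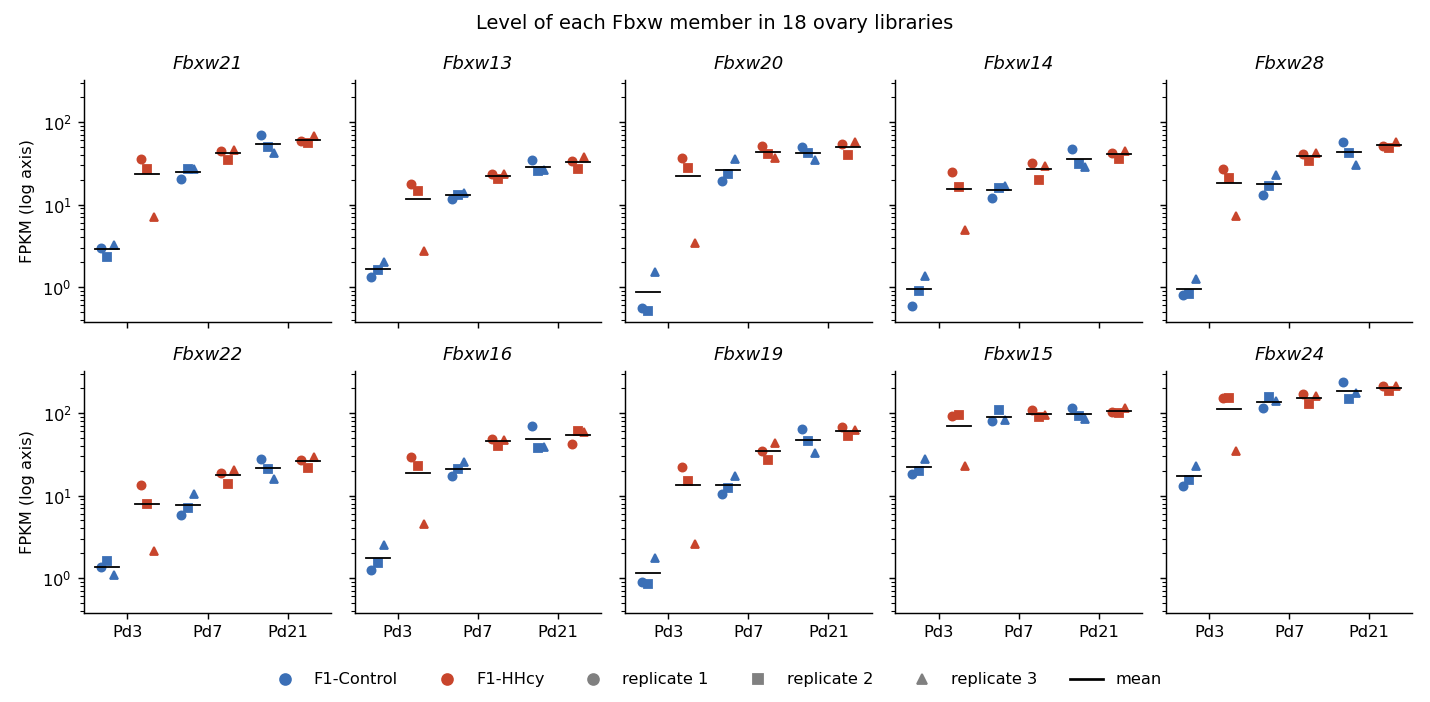
FPKM (log axis) of each member in the 18 libraries by day, with F1-Control in blue, F1-HHcy in red, a symbol per replicate number and the mean of 3 libraries as a line. Every member is higher at Pd7 than at Pd3 in F1-Control, and replicate 3 of F1-HHcy at Pd3 (red triangle) lies below the other two in every panel.

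Position in the array and level went together only in part. In F1-Control at Pd3 the first 8 genes from the Fbxw21 end had means from 0.875 to 2.86 FPKM. Fbxw23, the ninth, was at 0.0426 ± 0.0246 FPKM. The neighbours Fbxw15 and Fbxw24 then held the highest means of the array. Of the 4 genes after them, Fbxw25 was at 0.684 ± 0.197 FPKM, Fbxw18 at 9.64 ± 0.993, Fbxw26 at 3.98 ± 1.5 and Fbxw27 at 7.54 ± 1.07. The members thus include neither the lowest genes of the array, Fbxw23 and Fbxw25, nor Fbxw18, which was above 8 of the 10 members on that day.

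**Figure D3:**
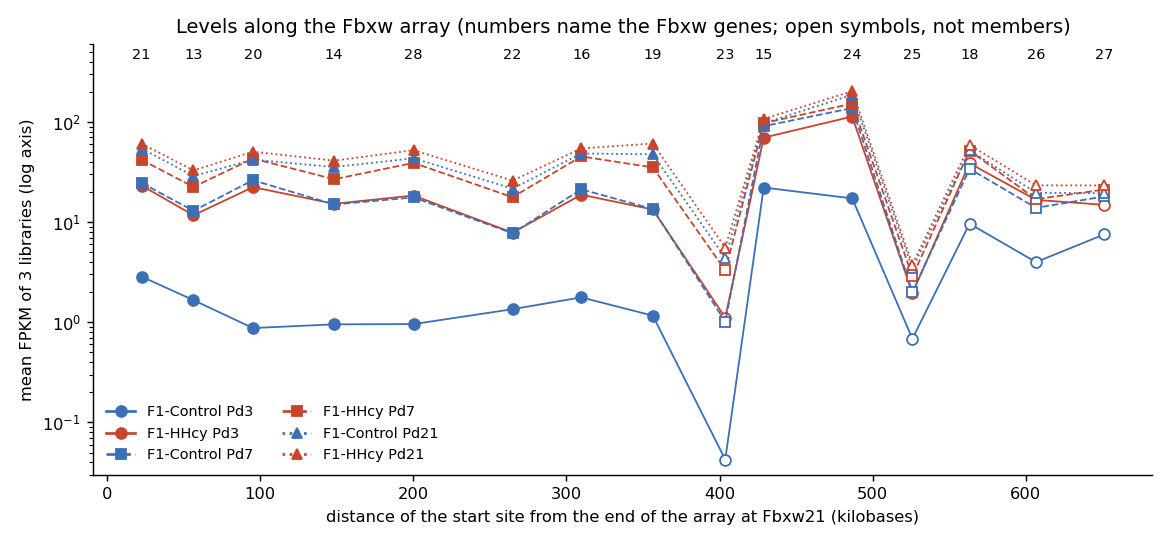
Mean FPKM of 3 libraries (log axis) of the 15 Fbxw genes of the array against the distance of their start site from its Fbxw21 end in kilobases, by group, with filled symbols for the 10 members and open symbols for the other 5. Fbxw15 and Fbxw24 lie highest in every group, and for the first 8 genes the means of F1-HHcy at Pd3 lie close to those of F1-Control at Pd7.

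The diets were compared within each day, to learn whether the ovaries of F1-HHcy pups held other levels of these oocyte genes than those of controls of the same age. At Pd3 the means of all 10 members were higher in F1-HHcy, from 3.15-fold for Fbxw15 to 25.5-fold for Fbxw20. Fbxw20 was at 36.2, 27.4 and 3.38 FPKM in F1-HHcy and at 0.564, 0.517 and 1.55 FPKM in F1-Control, a log2 fold change of 3.19 ± 0.74. Fbxw28 was at 26.8, 21.2 and 7.35 FPKM against 0.792, 0.835 and 1.25 FPKM (3.15 ± 0.41). In both genes replicate 3 was the lowest F1-HHcy library and still above the highest control.

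The near copy of Fbxw28, Fbxw14, was at 24.6, 16.1 and 4.90 FPKM in F1-HHcy against 0.598, 0.893 and 1.37 FPKM in F1-Control (2.83 ± 0.49). Fbxw16 was at 29.1, 22.6 and 4.57 FPKM against 1.24, 1.53 and 2.54 FPKM (2.54 ± 0.58). These groups too were apart, with replicate 3 nearest to the controls. Fbxw24, the most abundant member of this group, was at 154, 151 and 34.6 FPKM against 13.1, 15.6 and 23.1 FPKM (2.41 ± 0.55). Fbxw21 was at 35.5, 27.0 and 7.13 FPKM against 3.00, 2.34 and 3.23 FPKM (2.40 ± 0.50), and its lowest F1-HHcy library was above its highest control. Fbxw19 was at 22.2, 15.2 and 2.61 FPKM against 0.890, 0.856 and 1.75 FPKM (2.38 ± 0.62). Its groups were apart, although replicate 3 was nearer to the controls than to the other 2 libraries of its group.

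The members with the smaller fold changes at Pd3 showed the same uneven group. Fbxw13 was at 17.7, 14.7 and 2.73 FPKM in F1-HHcy against 1.34, 1.62 and 2.03 FPKM in F1-Control (1.96 ± 0.55). Fbxw22, the lowest member on all days in F1-HHcy, was at 13.5, 7.87 and 2.15 FPKM against 1.35, 1.60 and 1.10 FPKM (1.66 ± 0.49). Fbxw15 was at 91.9, 94.0 and 23.1 FPKM against 18.3, 20.1 and 28.0 FPKM (1.39 ± 0.50). It was the only member whose groups overlapped, because its replicate 3 was below a control. Its call was lost without F1-HHcy replicate 1 (1.07) or 2 (1.06), or without F1-Control replicate 1 (1.27) or 2 (1.34).

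By the criterion, 10 of 10 members were called higher at Pd3, beside 5.0% of all genes, and 9 did not overlap, beside 11.8%. Their median log2 fold change was 2.40, beside -0.03 over the 13277 genes tested. The 4 members Fbxw14, Fbxw19, Fbxw20 and Fbxw28 had fewer than 3 controls at 1 FPKM and so passed the filter only through F1-HHcy, where they were high. With an adjusted p in place of the unadjusted one, 2 members were called, Fbxw14 and Fbxw28, beside 2.84% of all genes in either direction. These are the near copies whose separate values are uncertain, and both passed the filter only through F1-HHcy, so nothing is read from this count. Without F1-HHcy replicate 3 the median of the members was 3.15.

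At Pd7 the pair Fbxw15 and Fbxw24 overlapped between the diets, whereas every F1-HHcy library was above every control for the other 8. Fbxw15 was at 108, 89.7 and 93.9 FPKM in F1-HHcy against 80.7, 109 and 82.3 FPKM in F1-Control (0.11 ± 0.17). Fbxw24 was at 170, 127 and 160 FPKM against 116, 156 and 141 FPKM (0.15 ± 0.18). Libraries of both diets were mixed in both genes.

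The largest difference at Pd7 was that of Fbxw19, at 35.1, 26.7 and 43.6 FPKM in F1-HHcy against 10.6, 12.5 and 17.4 FPKM in F1-Control (1.32 ± 0.22). Fbxw28 was at 41.2, 33.6 and 42.2 FPKM against 13.1, 16.7 and 23.0 FPKM (1.13 ± 0.20). Fbxw22 was at 18.8, 13.7 and 20.6 FPKM against 5.85, 6.99 and 10.3 FPKM (1.11 ± 0.22). In all 3 the groups were apart. Fbxw16 was at 48.5, 39.6 and 47.6 FPKM against 17.4, 21.0 and 25.3 FPKM (1.06 ± 0.17), and no library of one diet reached the other. Fbxw14 was at 31.7, 19.6 and 29.0 FPKM against 12.0, 16.04 and 16.9 FPKM (0.78 ± 0.20). Fbxw13 was at 23.3, 20.4 and 23.6 FPKM against 11.8, 13.1 and 13.9 FPKM (0.75 ± 0.14), with the lowest F1-HHcy library well above the controls. Fbxw21 was at 45.2, 34.3 and 46.2 FPKM against 20.2, 26.7 and 26.9 FPKM (0.74 ± 0.17). Fbxw20 was at 51.3, 41.2 and 36.8 FPKM against 19.4, 23.3 and 35.9 FPKM (0.73 ± 0.22), and here the groups nearly met. Without F1-Control replicate 1, Fbxw20 was not called (0.55).

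The criterion called 8 of 10 members higher at Pd7, beside 9.06% of all genes, and the same 8 did not overlap, beside 19.5%. The median over the 10 was 0.77, beside 0.00 over the 13299 genes tested. In 1 model of all 18 libraries 5 members were called, since Fbxw13, Fbxw20 and Fbxw21 were then not.

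At Pd21 the diets overlapped for all 10 members, where 1.92% of all genes were apart with F1-HHcy higher. Means were between 1.09-fold (Fbxw24) and 1.28-fold (Fbxw19) higher in F1-HHcy, and log2 fold changes were between 0.15 and 0.39, with a median of 0.22 beside -0.01 over the 13350 genes tested. Fbxw19 was at 67.2, 52.6 and 62.8 FPKM in F1-HHcy against 63.8, 46.2 and 32.5 FPKM in F1-Control (0.39 ± 0.24). Fbxw24 was at 213, 184 and 212 FPKM against 239, 147 and 173 FPKM (0.15 ± 0.20). In both, control replicate 1 was above at least 2 of the F1-HHcy libraries and the other 2 controls were below all 3. Limma called 0 of 10 members, beside 0.0824% of all genes called higher, with 0 at an unadjusted p under 0.05, and limma-voom on the recovered fragments also called 0. Without F1-Control replicate 1, the median was 0.42 and Fbxw19 was called (0.63). Whether the diet difference of a member changed between days was not tested, since the members were listed with these values known.

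**Figure D4:**
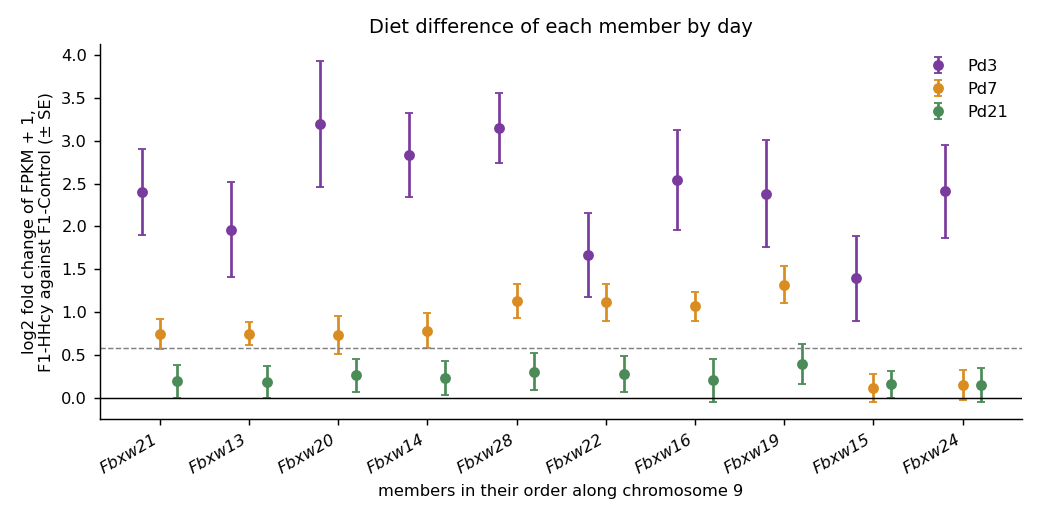
Log2 fold change of FPKM + 1 of each member, F1-HHcy against F1-Control, at Pd3, Pd7 and Pd21, with the SE of the fit on 3 against 3 libraries as bars and the 0.58 limit dashed. Values at Pd3 lie between 1.39 and 3.19 with wide bars, at Pd7 Fbxw15 and Fbxw24 lie near 0 while the other 8 lie between 0.73 and 1.32, and at Pd21 all lie below the limit.

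The F1-HHcy libraries of Pd3 were set beside the F1-Control libraries of both Pd3 and Pd7, gene by gene. In replicate 1, 8 members were above all 3 controls of Pd7 and 2 were within their range. In replicate 2, 2 were above and 8 were within. In replicate 3, 9 lay between the controls of Pd3 and those of Pd7, and Fbxw15 was within the controls of Pd3. How many of all genes were placed likewise in each library was not computed, so nothing is read from these counts. The make-up of the summed level differed as well. Fbxw15 and Fbxw24 held 54.4%, 61.7% and 62.4% of it in F1-HHcy at Pd3, apart from the 76.2% to 77.8% of the controls and close to the 56.8% to 66.0% of F1-Control at Pd7. At Pd7 they held 46.7% to 48.7% in F1-HHcy, apart from the controls and within the 44.6% to 50.9% of F1-Control at Pd21. Replicate 3 of F1-HHcy at Pd3, with a sum of 92.5 FPKM against 451 and 397 in its group, was at 62.4% for this pair, beside 61.7% in replicate 2.

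The summed FPKM of the members was 6.15-fold that of controls at Pd3 (314 ± 193 against 51.0 ± 13.2), 1.42-fold at Pd7 (521 ± 66.3 against 367 ± 52.3) and 1.14-fold at Pd21 (689 ± 57.7 against 605 ± 147). The groups were apart at Pd3 and Pd7 and overlapped at Pd21. To set the members beside other oocyte RNA of the same library, the sum was divided by the sum of 15 markers of growing oocytes, among them Gdf9 (a growth factor secreted by the oocyte), Zp1, Zp2 and Zp3 (proteins of the zona pellucida) and Npm2 (a nuclear chaperone). Per 100 FPKM of these markers, the members were at 3.19, 3.26 and 3.46 FPKM in F1-Control at Pd3, with the smallest SD of the 6 groups (0.136). In F1-HHcy at Pd3 they were at 15.1, 11.03 and 4.00 FPKM, all above the controls, with replicate 3 little above them. At Pd7 the members were at 23.9, 21.7 and 17.98 FPKM per 100 in F1-HHcy, again apart from 10.7, 8.54 and 10.96 FPKM in F1-Control. At Pd21 the ratios overlapped, at 16.1 to 21.4 FPKM in F1-HHcy and 16.1 to 18.3 FPKM in F1-Control. Split into the pair and the other 8, the pair overlapped between the diets at Pd3, at 2.49 to 8.23 against 2.43 to 2.68 FPKM per 100, while the other 8 were apart, at 1.504 to 6.89 against 0.725 to 0.776 FPKM per 100. For all 10, the group means of this ratio stood 3.04-fold apart at Pd3, 2.11-fold at Pd7 and 1.07-fold on Pd21. The largest of the 15 markers in F1-Control at Pd3 was Padi6 (434 ± 104 FPKM). It was not called between the diets on that day (log2 fold change 0.44 ± 0.21). Oosp1 (3.28), Bcl2l10 (2.98), Bmp15 (2.79) and Zar1 (2.62) rose more at Pd3 than the median member (2.40), and the other markers less. The median marker was at 1.15, so this ratio depends on which markers lead the sum.

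**Figure D5:**
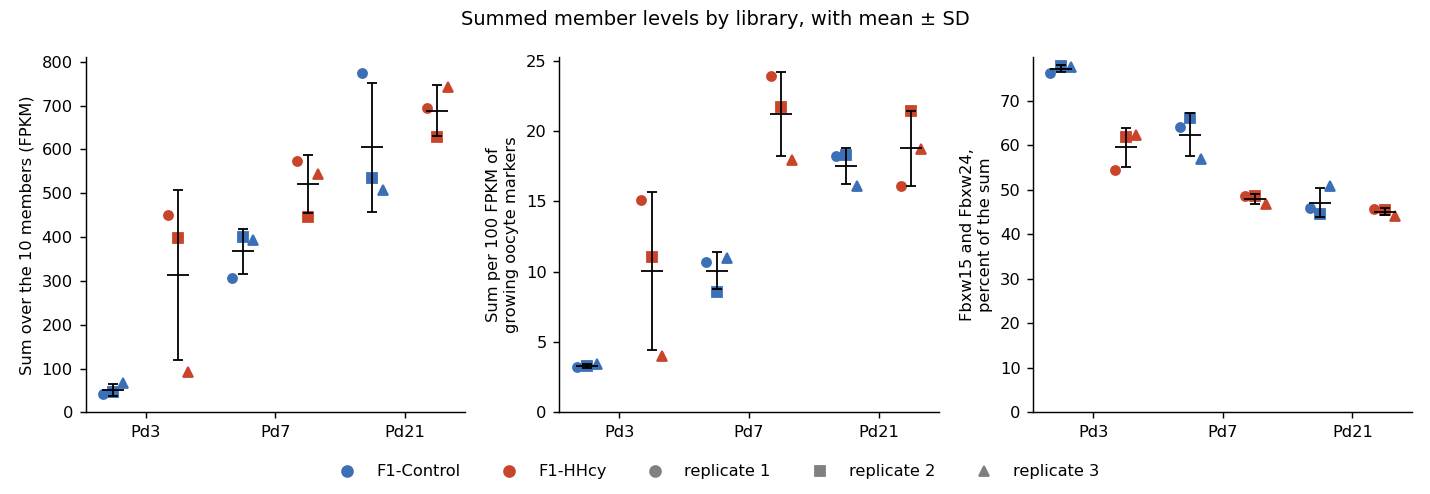
Sum of FPKM over the 10 members, the same per 100 FPKM of 15 growing oocyte markers, and the percent of the sum held by Fbxw15 and Fbxw24, in each library by day, with F1-Control in blue, F1-HHcy in red and black bars for the mean ± SD of 3 libraries. F1-HHcy lies above F1-Control at Pd3 and Pd7 and overlaps it at Pd21 in the first 2 panels, and lies below it at Pd3 and Pd7 in the third.

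The marker lists moved with these comparisons, and their part in the results was not tested. Of 16 growing oocyte symbols listed, 15 were in the files, and their sum was 2315 to 3603 FPKM in F1-HHcy against 1288 to 1908 FPKM in F1-Control at Pd3, where 11 of the 15 were called higher. At Pd7 it was 2057 to 3023 FPKM against 2876 to 4692 FPKM, with 3 called higher and 6 lower, so the mean of this sum was lower in F1-HHcy on that day, with overlap, whereas that of the members was higher. Zp3 was at 228, 187 and 346 FPKM in F1-HHcy at Pd7 against 354, 689 and 479 FPKM in F1-Control, while Gdf9 overlapped between the diets (198, 168 and 312 FPKM against 111, 195 and 294 FPKM). The 3 called higher were Bmp15, a growth factor of the oocyte (65.8 ± 10.8 against 18.5 ± 6.80 FPKM, log2 fold change 1.82 ± 0.23, adjusted p = 0.0030, limma), Oosp1, an oocyte-secreted protein (180 ± 30.2 against 95.5 ± 10.3 FPKM, 0.90 ± 0.17, adjusted p = 0.0119), and Bcl2l10 (143 ± 20.4 against 89.4 ± 20.8 FPKM, 0.69 ± 0.20, adjusted p = 0.0523). The 6 called lower were Padi6 (-1.34 ± 0.32), Zp2 (-1.17 ± 0.23), Zp3 (-0.99 ± 0.29), Nlrp5 (-0.97 ± 0.29), Ooep (-0.90 ± 0.24) and Tle6 (-0.68 ± 0.26). Of these 6, 3 had an adjusted p under 0.05 with limma (Padi6, Zp2 and Ooep). The list was thus split at Pd7. The marker lists were chosen with earlier results of these data known, so the p-values of their genes are given as a description. The 10 markers of germ cells and primordial oocytes summed to 168 to 498 FPKM against 491 to 537 FPKM at Pd3 and to 99.97 to 134 FPKM against 231 to 428 FPKM at Pd7, with 5 called lower and 0 higher at Pd3 and 9 lower and 1 higher at Pd7. Of these, Ddx4, an RNA helicase of germ cells, fell by 1.16 on the log2 scale at Pd7 (adjusted p = 0.00382, limma with Benjamini-Hochberg adjustment). Of the granulosa list, 3 of the 6 tested at Pd3 were called higher (Amh, Inha and Inhbb) and 0 lower. Amh was at 99.7, 35.2 and 9.72 FPKM in F1-HHcy at Pd3 against 1.65, 2.08 and 2.51 FPKM in F1-Control, with replicate 3 again the lowest. Foxl2 (0.10 ± 0.11) and Wnt4 (0.13 ± 0.17) were not called, nor was Kitl, whose groups were apart the other way (40.9 ± 5.35 against 60.2 ± 5.82 FPKM, -0.55 ± 0.13). The granulosa sum was 213 to 487 FPKM against 184 to 189 FPKM at Pd3, and the stroma sum was 569 to 776 against 310 to 424 FPKM, with 4 of 4 called higher. The endothelium and blood list went both ways at Pd3. Its sum, 723 to 990 against 3113 to 8888 FPKM, was held almost wholly by the hemoglobin genes Hba-a1 (264 ± 62.1 against 1917 ± 1078 FPKM) and Hbb-bs (514 ± 105 against 3749 ± 1865 FPKM), which were called lower. The endothelial markers Cdh5 (17.9 ± 4.81 against 8.10 ± 2.37 FPKM) and Pecam1 (16.7 ± 3.25 against 10.5 ± 1.57 FPKM) were called higher by the unadjusted p, and Kdr was not called (0.36 ± 0.24). At Pd7 the theca and steroidogenic sum was 1136 to 1195 FPKM against 216 to 449 FPKM with 6 of 6 called higher, and Cyp17a1, an enzyme of androgen synthesis, was at 169, 175 and 64.3 FPKM against 0.837, 0.599 and 9.03 FPKM. At Pd21 the oviduct and ciliated epithelium sum was 2.15 to 4.27 FPKM in F1-HHcy against 158 to 662 FPKM in F1-Control, with 5 of 5 called lower. No marker of any list was at 0 in all 3 libraries of a group.

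The partners of F-box proteins were followed in a list of the SCF core and its cycle, of which 11 of 12 symbols were in the files and tested. At Pd3, 0 were called higher and 1 lower, at Pd7 0 and 2, and at Pd21 0 and 0 (0 at an unadjusted p under 0.05 with limma), beside 5.0% higher and 4.74% lower of all genes on the first of these days. For Pd7 these shares of all genes were 9.06% and 7.35%, and for Pd21 they were 0.0824% and 5.06%. By an unadjusted p under 0.05 alone (limma, either direction), it was 2 of the 11 at Pd3 and 6 at Pd7, for which no share of all genes was computed. The list's median log2 fold changes were -0.15, -0.22 and 0.05. Cdc34, a ubiquitin-conjugating enzyme that works with SCF ligases, fell by 0.62 at Pd3 (36.1 ± 4.58 FPKM in F1-HHcy against 55.8 ± 2.87 in F1-Control, adjusted p = 0.0401, limma) and by 0.94 at Pd7 (22.1 ± 4.56 against 43.9 ± 12.3, adjusted p = 0.0228). Nedd8, the modifier that activates cullins, was lower at Pd7 by the unadjusted criterion (161 ± 4.85 against 258 ± 71.4 FPKM, log2 fold change -0.64 ± 0.20, adjusted p = 0.0651, limma). Skp1, the adaptor and the most abundant of the list with a mean of 301 FPKM over the 18 libraries, was not called (-0.54 ± 0.22 at Pd7), nor was Cops5, the catalytic subunit of the signalosome that removes Nedd8 from cullins (-0.52 ± 0.18 at Pd7). Leaving out 1 library at Pd7 changed how many of the list were called. It was 1 when F1-Control replicate 2 was left out and Nedd8 was lost (-0.43), and 3, Skp1 among them, when F1-HHcy replicate 3 was. It was 4 when F1-HHcy replicate 1 or 2 was left out, and 5 when F1-Control replicate 1 or 3 was, with Cops5 among the 4 and both Skp1 and Cops5 among the 5. Cdc34 at Pd3 was not called without F1-HHcy replicate 1 (-0.53).

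Of 15 other Fbxw genes listed, 14 were in the files and 13 were tested for the diets. At Pd3, 4 were called higher and 1 lower, and the 4 higher were Fbxw18, Fbxw25, Fbxw26 and Fbxw27, the genes that follow Fbxw24 in the array. Fbxw18, the most abundant of the list, rose from 9.64 ± 0.993 FPKM in F1-Control to 38.7 ± 8.47 FPKM in F1-HHcy (log2 fold change 1.88 ± 0.17, adjusted p = 0.0142, limma). Fbxw26 rose from 3.98 ± 1.5 to 16.7 ± 0.208 FPKM (1.87 ± 0.20, adjusted p = 0.0142, limma). For both, the 3 F1-HHcy libraries were above the 3 controls. Fbxw25 (0.78 ± 0.22, adjusted p = 0.0969, limma) and Fbxw27 (0.82 ± 0.29, adjusted p = 0.155, limma) passed only the unadjusted criterion. The groups of Fbxw27 overlapped, and its call was lost without F1-HHcy replicate 1 (0.63) or 2 (0.66), or without F1-Control replicate 1 (0.82) or 2 (0.73). Fbxw7, which targets cyclin E and Myc, was lower by that criterion (6.13 ± 1.73 against 10.1 ± 0.576 FPKM, -0.67 ± 0.18, adjusted p = 0.0848, limma). At Pd7 Fbxw18 (51.8 ± 6.26 against 34.1 ± 4.76 FPKM, 0.59 ± 0.16, adjusted p = 0.0389, limma) and Fbxw4 (5.64 ± 0.745 against 3.32 ± 0.606 FPKM, 0.62 ± 0.17, adjusted p = 0.0412, limma) were higher and none was lower. At Pd21 limma called 0 of the 13, with 0 at an unadjusted p under 0.05, and limma-voom called 0. Fbxw8 and Fbxw5, the next in abundance with means of 24.7 and 24.1 FPKM over the 18 libraries, were not called on any day. Fbxw23, which lies between members in the array, was not in this list. Its diet groups overlapped at Pd3 (1.11 ± 0.933 FPKM in F1-HHcy against 0.0426 ± 0.0246 in F1-Control). They were apart at Pd7 (3.30 ± 0.781 against 1.02 ± 0.392) and overlapped at Pd21 (5.57 ± 0.346 against 4.40 ± 1.56). At Pd3, 2 of the list were called when F1-HHcy replicate 1 was left out and 3 when replicate 2 was. At Pd7, Fbxw18 was not called without replicate 1 of either diet (0.50 and 0.48), nor Fbxw4 without F1-HHcy replicate 3 (0.53) or F1-Control replicate 2 (0.50).

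The profile of the summed level over the 18 libraries was compared with that of every other gene with a mean of at least 1 FPKM, as the root mean square difference between log2(FPKM + 1) values after each was centred on its mean. Of 13420 genes, whose median difference was 1.392, the 8 most alike were Klf17 (0.253), Oas1e (0.257), Pla2g4c (0.275), Nlrp2 (0.278), Omt2b (0.292), Eif4e1b (0.301), E330034G19Rik (0.301) and Mos (0.304). Among them Klf17 encodes a zinc finger transcription factor, Nlrp2 an oocyte protein of the NLRP family, Eif4e1b an oocyte form of the cap-binding factor, and Mos the kinase that holds the mature egg in meiotic arrest. Klf17 had a mean of 0.488 FPKM in the controls of Pd3 and 6.46 FPKM in F1-HHcy, and of 7.25 and 12.3 FPKM at Pd7. Mos was at 3.63 and 18.5 FPKM at Pd3 and at 20.7 and 30.1 FPKM at Pd7. Nlrp2 was at 0.217 and 8.85 FPKM at Pd3, where the sum was at 51.0 and 314 FPKM. The added 1 shrinks changes of genes under 1 FPKM, such as Klf17 and Nlrp2 in these controls, far more than those of the sum. The ranks of these genes thus depend on the added 1, which was not varied for this comparison. For comparison, the members themselves differed from their own sum by 0.162 (Fbxw24) to 0.520 (Fbxw15), so that Fbxw15, although abundant, was the member least like the sum. Each member is part of this sum, unlike the 8 genes above, so its difference is in part fixed by that. These points share their libraries, and the likeness is a description.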

How the data were processed

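Ovary RNA of the 18 libraries was sequenced from stranded poly-A libraries. The authors deposited a value for each gene symbol in each library and named no unit. These deposited values were read as FPKM because they became whole fragments (within 0.02), once multiplied by 1 length for the gene and 1 factor for the library, for 99.989% of 27294 genes above 0 in at least 3 libraries. The submitters' processing notes name STAR 2.7.9a, featureCounts 2.0.1 and GRCm38, and leave their roles and the treatment of fragments that fit several genes unstated. All 18 columns were assigned to groups by their labels.

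Each comparison took its 6 libraries, kept genes that reached 1 FPKM in 3 or more of them, and was fitted with limma 3.58.1 in R 4.3.3 with a variance trend on log2(FPKM + 1). Calls needed a p under 0.05 before adjustment and a log2 fold change beyond 0.58 either way. Adjusted p-values are Benjamini-Hochberg values over all genes tested. The difference of a diet effect between days came from 1 model of the 6 groups on 14607 genes. The fit was tested on data simulated with 1 setting of spread for all groups. Whether it holds for libraries as uneven as those of F1-HHcy at Pd3 was not tested. The members and all lists were chosen with earlier results of these data known.

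The text names all 10 members, of each of the 2 pathway lists the 3 most abundant genes and every gene called for the diets, the 8 genes most alike, and Ddx4, Gdf9, Zp3, Amh and Cyp17a1. Fbxw23 and the other markers given with values were added after their values were seen. Markers of 7 kinds of cells were listed. Sequences were read from RefSeq promoters (GRCm38.p6) and GENCODE vM21 transcripts and aligned globally with Biopython 1.88. In the comparison of Pd7 with Pd3 in F1-Control, same-numbered libraries deviated together over genes (r = 0.134, 0.262 and 0.292), which the labels do not explain. Figures were made with Python 3.11.15 and matplotlib 3.10.9. Alternatives were a pseudocount of 0.1, no filter, all 18 libraries in 1 model, a replicate block, the adjusted p, median-ratio scaling, limma-voom on recovered fragments, leaving out each library in turn and, for the sums, leaving out the most abundant member.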

Additional observations from a re-analysis of the deposited data

Results flagged for a closer look

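The effect of the diet on 2 neighbours of the members in the array differed between days, by the test of that difference over all 14607 genes (limma, 1 model of 18 libraries, Benjamini-Hochberg adjustment). Both genes belong to a list chosen with earlier results of these data known, so their adjusted p-values are given as a description. For Fbxw26 the log2 fold change at Pd3 exceeded that at Pd7 by 1.60 (adjusted p = 0.0143). Every F1-HHcy library of Fbxw26 was above every control at Pd3 only, and the groups overlapped at Pd7 and Pd21. The log2 fold change of Fbxw26 at Pd3 exceeded the value at Pd21 by 1.63 (adjusted p = 9.34e-04). For Fbxw18 the log2 fold change at Pd3 exceeded that at Pd21 by 1.66 (adjusted p = 0.00133). Every F1-HHcy library of Fbxw18 was above every control at Pd3 and at Pd7, and the groups overlapped at Pd21. No other gene of the 2 pathway lists differed between days with an adjusted p under 0.05, and 60 (Pd3 and Pd7), 671 (Pd3 and Pd21) and 568 (Pd7 and Pd21) of all genes did. Age and batch cannot be told apart where Pd21 takes part.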

How the results depend on the processing

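The counts of members called were within 1.5 times the reported ones for a pseudocount of 0.1, no filter, the replicate block, median-ratio scaling, limma-voom and 1 model of all 18 libraries, except that this model called 5 in place of 8 at Pd7. With the adjusted p, the criterion called 2 members in place of 10 at Pd3, 2 other Fbxw genes in place of 5 at Pd3 and 1 gene of the SCF list in place of 2 at Pd7. The replicate block, for which the numbers paired libraries only in the comparison of Pd7 with Pd3, left 10, 8 and 0 members called for the diets at Pd3, Pd7 and Pd21, and 10 and 8 for the ages. Leaving out each library in turn gave 9 to 10 members at Pd3, 7 to 8 at Pd7, 0 to 1 at Pd21 (1 without F1-Control replicate 1), 10 to 10 for Pd7 against Pd3 and 7 to 8 for Pd21 against Pd7. For the SCF list it gave 0 to 1 at Pd3 (0 without F1-HHcy replicate 1) and 1 to 5 at Pd7, and for the other Fbxw genes 2 to 5 at Pd3 and 1 to 2 at Pd7.

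The log2 ratio of the summed level, 2.62 at Pd3, 0.51 at Pd7 and 0.19 at Pd21, ranged over libraries left out from 2.27 to 3.06, the latter without F1-HHcy replicate 3, from 0.39 to 0.61 and from 0.075 to 0.40. Per growing oocyte marker, ratios of 1.60, 1.08 and 0.097 ranged from 1.19 to 1.98, from 0.97 to 1.18 and from -0.00908 (without F1-HHcy replicate 2) to 0.20. Fbxw24 at Pd21 ranged from -0.00861 (without F1-Control replicate 2) to 0.34, and Fbxw15 from Pd7 to Pd21 ranged from -0.0327 (without F1-Control replicate 1 of Pd21) to 0.23. The cause of these shifts was not tested. Members near 1 FPKM at Pd3 rest on few fragments. How well the values of Fbxw14 and Fbxw28 separate depends on how shared fragments were counted, which was not tested.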
